A study of Homo sapiens with 26 samples.

Results

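The human mitochondrial genome has 37 genes, and all 37 have a row of their own among the 56638 gene rows of the gradient fraction tables analysed here. Members were taken by symbol, as every row starting with MT- in the 24 fraction tables and every row starting with mt- in the 2 input tables, where 37 of 55353 rows matched. They comprise 13 mRNA, 2 rRNA and 22 tRNA rows, of which 28 belong to heavy-strand genes and 9 to light-strand genes. The cells were SK-MEL-28, a human melanoma line with mutant BRAF, either kept in salubrinal for 72 h or left untreated as control. Salubrinal blocks the removal of phosphate from the translation factor eIF2α and so switches on the integrated stress response (ISR). Lysates of cells given cycloheximide at 100 µg/mL for 12 min were spun through 5 to 20% sucrose, and the gradient was pooled into 40S, 60S, 80S and polysome samples, with 3 replicates for each treatment, while 1 input sample per treatment was also sequenced. Since no label states that the replicates were grown apart, a p-value here reflects only how these samples vary, which may be technical. The cell-line field holds 26 numbered names, and the titles, which all name SK-MEL-28, were followed.

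Mitochondrial DNA is a small circle whose strands are called heavy and light. Each is copied into long precursor RNAs, from which tRNAs are cut out and so release the mRNAs and rRNAs lying between them. All mitochondrial mRNAs encode subunits of the respiratory chain or of ATP synthase. They are translated on mitoribosomes inside the organelle, which cycloheximide does not block, and not on the cytosolic ribosomes after which the gradient fractions are named. MT-ND6, a subunit of respiratory complex I, is the one mRNA encoded by a light-strand gene, and the remaining light-strand genes are tRNAs.

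Most records of the fraction samples reached no gene row, because their alignment was not unique. These were 10955610 of 11802845 records in 40S replicate 2 with salubrinal and 5452500 of 6666148 in control 40S replicate 3. MT rows held 166 to 666 counts per fraction sample, so shares and fold changes below rest on a small remainder. Most counts on gene rows in the fraction tables fell on nuclear rRNA. Summed over the 4 fractions of a library, 10098, 3734 and 73158 counts lay outside rRNA rows in salubrinal libraries 1, 2 and 3, against 86125, 22499 and 93628 in control libraries 1, 2 and 3. That was 1.66% ± 2.20 of gene-row counts with salubrinal and 3.54% ± 2.77 in control (SD, n = 3 each, two-sided exact permutation p = 0.5, where 0.1 is the smallest p that 3 against 3 can give). On the MT rows the 4 fraction files of a library held the same counts within sampling noise, with a chi-square per degree of freedom of 0.629 to 1.05 and 0 of 6 libraries differing (smallest unadjusted p = 0.381, Benjamini-Hochberg p = 0.952 for each). The 3 libraries of one treatment differed from each other far more, at 20.1 with salubrinal and 7.11 in control. The fraction files of a library were therefore summed and counted as 1 sample, giving 3 salubrinal and 3 control libraries, with the control 40S files titled replicates 1 and 2 placed with libraries 2 and 1, whose other files they match. As titled, both of those control libraries differed between fractions, at 1.95 and 2.67. Files were placed by the lowest chi-square over rows outside rRNA, MT mRNA and tRNA rows included. Agreement in those control libraries was thus selected for, while the other libraries stand as titled.

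The library kit keeps strand, but the sources used here do not give the strand setting of the counting. Of 128 nuclear gene and antisense row pairs with at least 24 counts, 99 had more counts on the antisense row, and VIM, the row of the vimentin gene, had 23 against 6280 on VIM-AS1. Which strand's RNA an MT row counts can therefore not be told from these tables, and "heavy" and "light" below say where the named gene is encoded. A rise or fall of an MT row below may thus be that of RNA from either strand. Records aligned to no gene also outnumbered counts outside rRNA, for example by 781465 to 18213 in 40S replicate 3 with salubrinal. In control 40S replicate 3 they numbered 803969 against 23297, and the part of strand in this was not tested. Mitochondrial genes abut or overlap, and the nucleus holds near-identical copies of them, so reads may also have been set aside or placed on a neighbour.

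In all, 9250 fraction counts fell on MT rows, and they were spread unevenly between the strands. The 12 heavy-strand mRNA rows held 1973 counts with salubrinal and 2625 in control. MT-ND6 alone held 1445 with salubrinal and 1499 in control, the largest number on any MT row. The 2 rRNA rows held 534 and 604 counts with salubrinal and in control. Among tRNA rows the 8 light-strand ones held 178 counts with salubrinal and 352 in control, while the 14 heavy-strand ones held 15 and 25, so that 93.0% of tRNA-row counts lay on light-strand rows. Of the 37 rows 27 had a count, and the other 10 were all tRNA rows (MT-TF, MT-TV, MT-TL1, MT-TN, MT-TK, MT-TG, MT-TR, MT-TH, MT-TS2 and MT-TL2), for each of which a 0 allows up to 3 counts over the 24 files. Counts of different rows are given without correction for gene length and are not compared as expression levels.

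**Figure D1:**
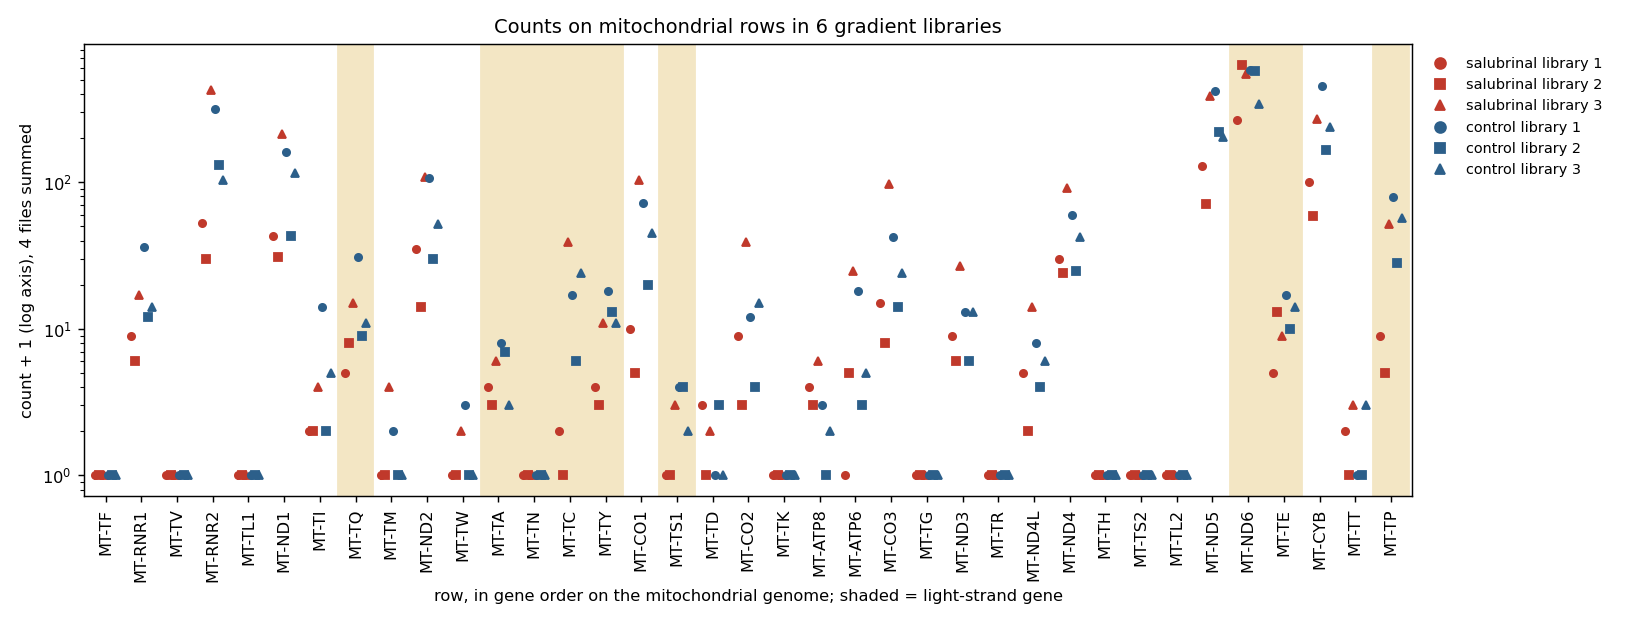
Counts on the 37 MT rows in 6 gradient libraries (count + 1, log axis), in gene order along the mitochondrial genome, with red points for salubrinal, blue points for control and shading for light-strand genes. MT-ND6 has 263 to 635 counts in every library, its neighbours MT-ND5 and MT-CYB are the next highest mRNA rows, and the 10 rows at 0 are all tRNAs.

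The counts were concentrated at one end of the gene order. MT-ND5, MT-ND6 and MT-CYB, which follow one another with only the light-strand tRNA gene MT-TE between the last 2 of them, held 74.9% of all counts on mRNA rows. MT-ND5, another complex I subunit, had 128, 70 and 389 counts with salubrinal, against 420, 218 and 202 in control. MT-CYB, the cytochrome b of complex III, had 100, 58 and 268 with salubrinal, against 451, 164 and 236 in control. Both rows were lowest in salubrinal library 2, the library with the fewest counts outside rRNA. MT-TE, the glutamate tRNA, had 4, 12 and 8 counts with salubrinal, against 16, 9 and 13 in control, and unlike MT-ND5 and MT-CYB it was not low in salubrinal library 2. MT-TP, the proline tRNA that ends the gene order, was the highest tRNA row, at 8, 4 and 51 with salubrinal against 78, 27 and 56 in control.

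MT-ND6 did not follow the depth of the libraries as the heavy-strand mRNA rows did. It had 263, 635 and 547 counts with salubrinal, against 586, 570 and 343 in control, and the highest of these values came from the library with the fewest counts outside rRNA. Per 1000000 nuclear rRNA counts this was 173, 232 and 326 with salubrinal, against 236, 223 and 251 in control. On that scale the salubrinal libraries spanned the control ones, with means of 244 ± 77.2 with salubrinal and 236 ± 14.1 in control (SD, n = 3 each, two-sided exact permutation p = 0.9). Per 10000 counts outside rRNA the same counts came to 260, 1701 and 74.8 with salubrinal, against 68, 253 and 36.6 in control. The ordering of the libraries on this second scale was the reverse of their depth outside rRNA within each treatment.

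**Figure D2:**
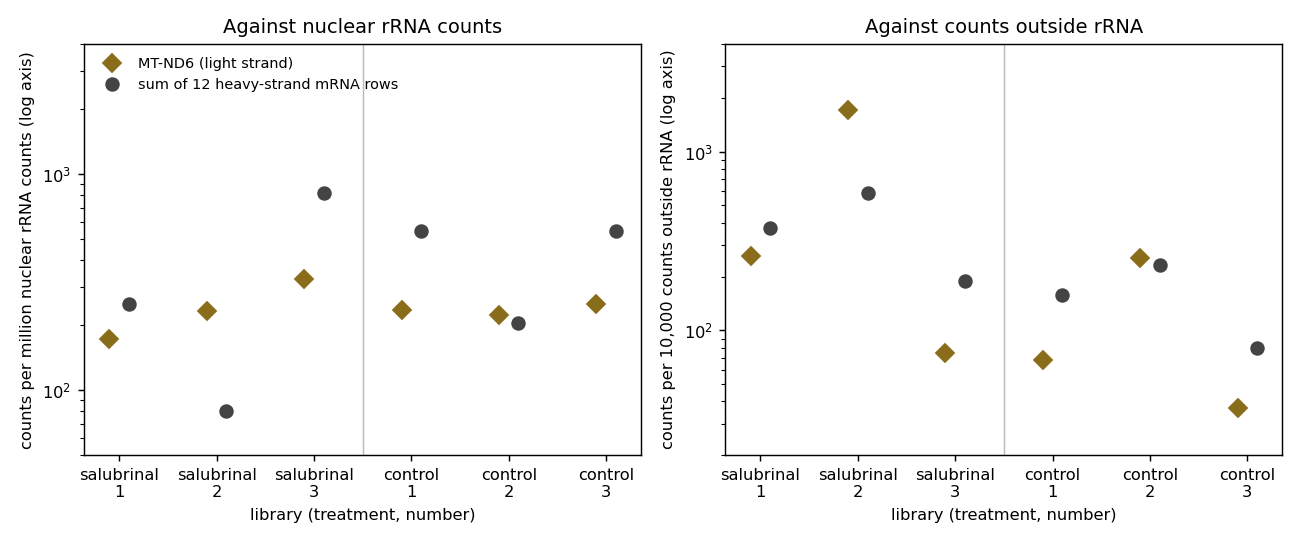
MT-ND6 and the 12 heavy-strand mRNA rows together in the 6 libraries, per 1000000 nuclear rRNA counts and per 10000 counts outside rRNA, with salubrinal libraries left of control libraries and both scales logarithmic. MT-ND6 lies between 173 and 326 on the first scale and between 36.6 and 1701 on the second, while the heavy-strand mRNA rows vary more than MT-ND6 on the first scale and less on the second.

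The heavy-strand mRNA rows together behaved otherwise. They had 250, 80.1 and 820 counts per 1000000 nuclear rRNA counts with salubrinal, against 546, 204 and 546 in control. Per 10000 counts outside rRNA they had 375, 587 and 188 with salubrinal, against 157, 232 and 79.8 in control, with means of 383 ± 199 with salubrinal and 156 ± 76.1 in control (SD, n = 3 each, two-sided exact permutation p = 0.2). The ratio of MT-ND6 to heavy-strand mRNA counts, which needs no scaling, was 0.694, 2.90 and 0.398 with salubrinal, against 0.432, 1.09 and 0.459 in control. It was highest in each treatment in the library with the fewest counts outside rRNA.

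The same contrast appeared row by row. Of 264 rows with at least 100 counts in all and a count in each library, 4 varied by less than 2.5-fold between the highest and lowest library per nuclear rRNA count, a limit chosen after the values were seen. They were the 28S rRNA row RNA28S5 (1.01-fold), which holds 98.6% of the nuclear rRNA counts and so is steady on this scale by construction, MT-ND6 (1.88-fold), the unnamed transcript AC079949.1 (2.19-fold) and the 18S rRNA row RNA18S5 (2.20-fold). The 250 rows that are neither mitochondrial nor ribosomal had a median range of 100.0-fold on this scale and of 3.20-fold per count outside rRNA. MT-ND6 had the opposite pattern, with 46.4-fold per count outside rRNA. Between these lay MT-ND4 (6.46-fold per nuclear rRNA count and 14.1-fold per count outside rRNA), MT-CYB (8.56 and 6.16), MT-ND5 (9.07 and 8.69), MT-ND1 (11.6 and 6.60) and MT-ND2 (13.6 and 6.39). MT-CO3, MT-RNR2, MT-TP and MT-CO1 varied by 22.6 to 41.6-fold per nuclear rRNA count and by 2.01 to 7.63-fold per count outside rRNA. These ranges are descriptions with no test.

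**Figure D3:**
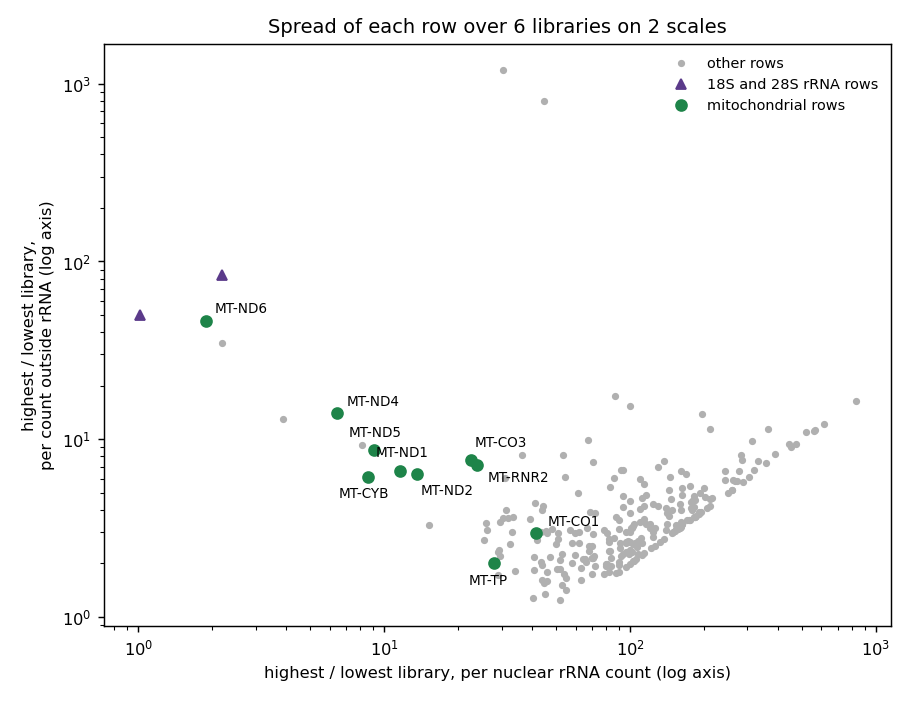
Highest over lowest of the 6 libraries for each row with at least 100 counts and a count in every library, per nuclear rRNA count (horizontal, log axis) and per count outside rRNA (vertical, log axis). Grey points are other rows, triangles the 18S and 28S rRNA rows and green points the MT rows, which run from MT-ND6 at 1.88 and 46.4-fold, beside the rRNA rows that make up the horizontal scale, to MT-CO1 at 41.6 and 2.97-fold, among the other rows.

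MT rows other than rRNA held 6.63% (95% exact binomial interval 6.15 to 7.13), 23.6% (22.3 to 25.0) and 2.82% (2.70 to 2.94) of the counts outside rRNA with salubrinal. In control they held 2.47% (2.36 to 2.57), 5.18% (4.89 to 5.48) and 1.29% (1.22 to 1.37). The mean was 11.0% ± 11.1 with salubrinal and 2.98% ± 1.99 in control (SD, n = 3 each), a difference of 8.04 points that the groups' overlap leaves within the spread of libraries (two-sided exact permutation p = 0.2). Without salubrinal library 2 the difference was 1.74 points. With MT-ND6 set aside the share was 4.02, 6.61 and 2.07% with salubrinal, against 1.79, 2.64 and 0.927% in control (4.23% ± 2.28 and 1.79% ± 0.859, SD, n = 3 each, p = 0.2 by the same exact test). In each treatment the share was highest in the library with the fewest counts outside rRNA, and the part of depth in it was not tested. RNA was pooled from many cells, so the number of mitochondria, the number of cells holding them and the RNA in each cannot be told apart. Intervals cover counting error only.

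The number of MT rows with a count varied little between libraries. Of the 35 MT rows that are not rRNA, 21, 19 and 25 had a count with salubrinal, against 23, 21 and 22 in control. Thinned to 3734 counts outside rRNA, the depth of the shallowest library, 17.4, 19 and 14.9 rows were expected to have a count with salubrinal, against 13.6, 15.2 and 11.2 in control. The deepest library of each treatment then had the fewest.

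Light-strand rows held 42.8% (39.0 to 46.6), 75.1% (72.1 to 77.9) and 32.8% (30.7 to 34.8) of MT counts outside rRNA with salubrinal. In control they held 35.4% (33.4 to 37.5), 54.9% (52.0 to 57.8) and 37.8% (35.1 to 40.6). Library 2 of each treatment, the one with the fewest counts outside rRNA, stood above the other two by more than counting error. The means were 50.2% ± 22.1 with salubrinal and 42.7% ± 10.6 in control (SD, n = 3 each), and the difference of 7.46 points was smaller than the spread between libraries (two-sided exact permutation p = 0.7). Without salubrinal library 2 it was -4.97 points.

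Between treatments, 7 of the 16 MT rows with enough counts to test were higher with salubrinal and 0 were lower, in edgeR's quasi-likelihood test with adjusted p under 0.05 over all 913 rows tested. Over all rows 3.61% were called higher and 2.08% lower. All 7 belong to heavy-strand genes: 4 subunits of complex I and the 3 of cytochrome c oxidase. The 16 rows had a median log2 fold change of 1.25, against -0.07 over all tested rows. In 8 of them every salubrinal library lay above every control library in CPM (counts per 1000000 gene-row counts, scaled by trimmed mean of M-values, TMM), which held for 5.91% of all tested rows, and in 0 did every salubrinal library lie below (18.6% of all tested rows). The tested rows were 10 mRNA, 2 rRNA and 4 tRNA rows, and since a row can pass the count filter through the group in which it is high, these counts do not speak for the other 21.

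Complex I, which takes electrons from NADH, is the complex with the most mitochondrially encoded subunits. MT-ND4 had 46.6, 92.5 and 17.5 CPM with salubrinal, against 8.53, 14.5 and 5.47 in control, or 2.25 ± 0.44 higher on the log2 scale (± SE throughout, edgeR adjusted p = 8.9e-05). MT-ND3 had 12.9, 20.1 and 4.99 CPM with salubrinal, against 1.73, 3.03 and 1.60 in control, and rose by 1.93 ± 0.47 (adjusted p = 0.00213). Both rows were separated between treatments in every library, although MT-ND3 rests on 5 to 26 counts in each. MT-ND1 had 67.6, 121 and 41.0 CPM with salubrinal, against 23.0, 25.4 and 15.2 in control, and rose by 1.75 ± 0.45 (adjusted p = 0.0048). MT-ND2 had 54.7, 52.3 and 20.7 CPM with salubrinal, against 15.3, 17.6 and 6.81 in control, and rose by 1.56 ± 0.43 (adjusted p = 0.00926). In all 4 rows salubrinal library 3, the deepest of its treatment, was the lowest treated library, and control library 3, the deepest of all, was the lowest control library.

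The 2 complex I rows with the most counts did not pass. MT-ND5 had 206, 282 and 74.6 CPM with salubrinal, against 60.7, 132 and 27.0 in control, and the treatments overlapped (log2 fold change 1.34, edgeR adjusted p = 0.0913). Of the alternatives it was called only without nuclear rRNA rows (1.45, adjusted p = 0.0149) and with replicate numbers as titled (1.64, adjusted p = 0.0179). MT-ND6 had 423, 2554 and 105 CPM with salubrinal, against 84.7, 345 and 45.8 in control. Its log2 fold change of 2.69 was the largest of the MT rows, but its standard error of 1.15 was also the largest and the adjusted p was 0.148. Single libraries decided that value, which was 0.71 without salubrinal library 2 (adjusted p = 0.815) and 3.91 without control library 2 (adjusted p = 0.00542). MT-ND6 was also called higher without salubrinal library 1 (2.85, adjusted p = 0.0453), on counts outside rRNA as library size (2.5, adjusted p = 0.0437) and with replicate numbers as titled (3.21, adjusted p = 0.000466). MT-ND4L was not tested, with 4, 1 and 13 counts with salubrinal against 7, 3 and 5 in control.

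Cytochrome c oxidase, complex IV, passes electrons to oxygen, and its 3 mitochondrially encoded subunits form its core. MT-CO2 had 12.9, 8.05 and 7.29 CPM with salubrinal, against 1.59, 1.82 and 1.87 in control, and rose by 2.21 ± 0.45 (edgeR adjusted p = 0.000122). These values come from 8, 2 and 38 counts with salubrinal, against 11, 3 and 14 in control. MT-CO3 had 22.5, 28.2 and 18.6 CPM with salubrinal, against 5.93, 7.87 and 3.07 in control, and rose by 2.03 ± 0.36 (adjusted p = 1.42e-05, the smallest of the MT rows). MT-CO1 had 14.5, 16.1 and 19.6 CPM with salubrinal, against 10.3, 11.5 and 5.88 in control, and rose by 1.07 ± 0.35 (adjusted p = 0.0434). MT-CO1 stood nearest to the threshold of the called rows, and its call was lost in 10 of the 18 alternative settings tried.

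MT-CYB, of complex III, had 161, 233 and 51.4 CPM with salubrinal, against 65.2, 99.3 and 31.5 in control, and did not pass (log2 fold change 1.15, edgeR adjusted p = 0.148). Of the alternatives it was called only without nuclear rRNA rows (1.25, adjusted p = 0.0354) and with replicate numbers as titled (1.33, adjusted p = 0.0468). The ATP synthase rows did not reach the count filter of this fit. MT-ATP6 had 0, 4 and 24 counts with salubrinal, against 17, 2 and 4 in control. Under a filter of over 1 CPM and at least 50 counts it was tested and called higher (1.70, edgeR adjusted p = 0.014), as it was without control library 2 (1.63, adjusted p = 0.0322) and without salubrinal library 1 (1.87, adjusted p = 0.0253), but not without salubrinal library 2 (1.45, adjusted p = 0.11) or with DESeq2 (1.83, adjusted p = 0.566). MT-ATP8 had 3, 2 and 5 with salubrinal, against 2, 0 and 1 in control.

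Neither rRNA of the mitoribosome passed. MT-RNR2, the large-subunit rRNA, had 83.6, 117 and 81.3 CPM with salubrinal, against 45.3, 78.7 and 13.6 in control (log2 fold change 1.03, edgeR adjusted p = 0.152). Of the alternatives it was called only without nuclear rRNA rows (1.13, adjusted p = 0.0494) and with replicate numbers as titled (1.27, adjusted p = 0.0360). Its treatments did not overlap, by a narrow margin between 81.3 CPM in salubrinal library 3 and 78.7 CPM in control library 2. MT-RNR1, the small-subunit rRNA, had 12.9, 20.1 and 3.07 CPM with salubrinal, against 5.06, 6.66 and 1.74 in control (log2 fold change 0.50, adjusted p = 0.634). Its fold change was 1.91 without salubrinal library 3 (edgeR adjusted p = 0.0965) and 0.11 without salubrinal library 1 (adjusted p = 0.955). Counts on MT-RNR2 exceeded those on MT-RNR1 by 6.5, 5.8 and 26.5 times with salubrinal, against 8.94, 11.8 and 7.85 times in control, so salubrinal library 3 stood apart from the other 5.

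All 4 tested tRNA rows belong to light-strand genes and 0 passed (edgeR, with adjusted p from 0.0819 to 0.991). MT-TP had 12.9, 16.1 and 9.78 CPM with salubrinal, against 11.3, 16.3 and 7.48 in control, a log2 fold change of 0.02 whose sign changed with the scaling. MT-TC, the cysteine tRNA, had 1, 0 and 38 counts with salubrinal, against 16, 5 and 23 in control. Its log2 fold change of 1.14 came from salubrinal library 3 and was -1.29 without it. It passed without salubrinal library 2 (1.22, edgeR adjusted p = 0.0365), with titled numbers (1.24, adjusted p = 0.0239) and without nuclear rRNA rows (1.19, adjusted p = 0.041). MT-TQ had 4, 7 and 14 counts with salubrinal, against 30, 8 and 10 in control (0.58), and MT-TY had 3, 2 and 10, against 17, 12 and 10 in control (0.01), and both signs changed with the scaling. The 8 tRNA rows that had a count but were not tested held 3 to 62 counts each over all libraries, MT-TE the most. MT-TE reached the count filter without salubrinal library 3, where it was called higher (2.90, edgeR adjusted p = 0.00088), but stood at -0.20 without salubrinal library 2 (adjusted p = 0.892).

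**Figure D4:**
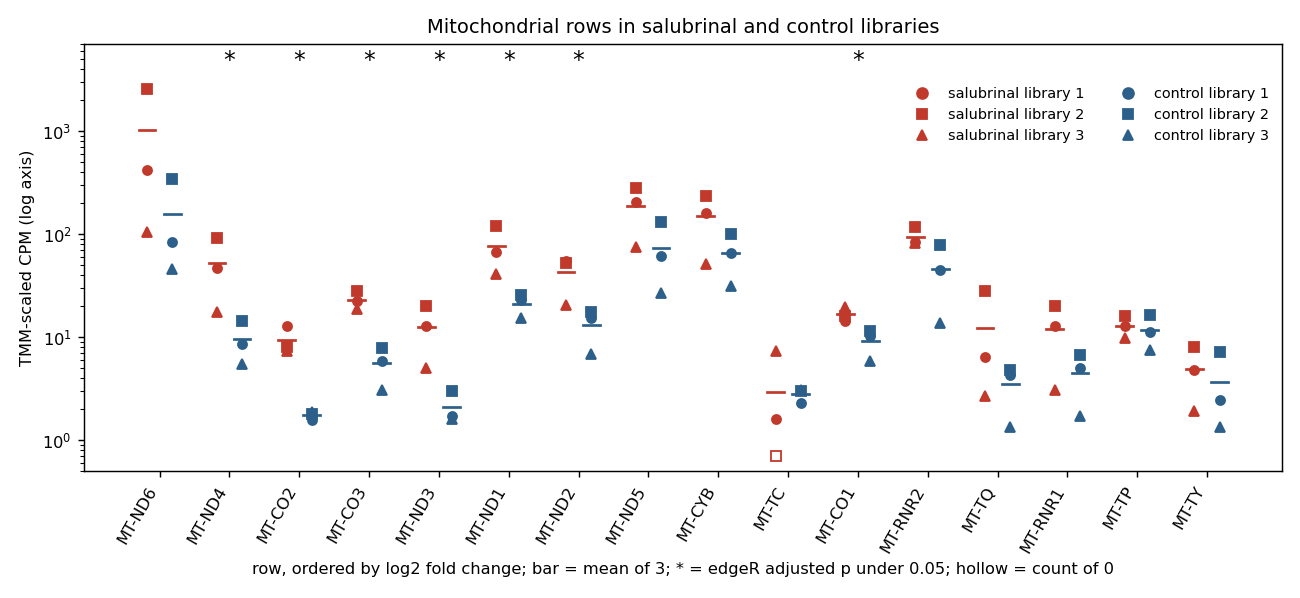
CPM scaled by TMM of the 16 tested MT rows in each library (log axis), with salubrinal libraries left of control libraries, bars for the mean of 3, asterisks over called rows and a hollow point for a count of 0. The 7 called rows are separated between treatments, while MT-ND6 spreads over 105 to 2554 CPM with salubrinal and 45.8 to 345 CPM in control.

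Scaling and depth both bore on these calls. TMM factors were 0.407, 0.0908 and 3.00 for salubrinal, against 2.71, 0.640 and 5.19 for control. With library size alone 0 of 16 MT rows and 0 of all 913 rows were called by edgeR (0 of either at an unadjusted p under 0.05). The median over all tested rows was then -1.30 and that of MT rows 0.01, so the MT rows still stood above the median row. With the log2 of counts outside rRNA as a covariate, a setting added after the data were seen, 69 of 913 rows were called, 51 of them higher. MT-CO1 (1.09), MT-CO2 (2.08), MT-CO3 (1.85), MT-ND3 (1.45), MT-ND4 (1.14) and MT-TC (1.38) were among those called higher. In that fit MT-ND1 (1.07, adjusted p = 0.0755) and MT-ND2 (0.88, adjusted p = 0.144) lost their calls, and MT-ND6 had a log2 fold change of 0.01. Among the 3 libraries with over 50000 counts outside rRNA, 1 with salubrinal and 2 control, 7 rows were called, with MT-TC in place of MT-ND2, on the assumption that the lone salubrinal library varies like the control ones. Without control library 3 only 1 MT row was called, among 8 of 1054 rows in all, and without control library 1 only 3, among 8 of 909.

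Within single fractions 9 MT rows had enough counts to test, and the fraction files repeat the same libraries, so these calls are not independent of each other or of the summed ones. In 40S, 3 of 9 rows were called higher (6.22% of all tested rows), in 60S 3 (6.84%), in 80S 5 (7.51%) and in polysome 1 (2.49%). In each fraction 0 were called lower by edgeR, against 1.78, 2.99, 5.16 and 1.24% of all tested rows in that order. DESeq2, run without the filter, called 0 rows of any kind in each, of 5973 to 6044 rows. At an unadjusted p under 0.05 it had 3 to 5 MT rows, among 45 to 59 rows in all. MT-ND4 was called in all 4 fractions, with log2 fold changes of 1.34 to 2.16. MT-ND1 was called in 3 fractions and stood above control in every library of all 4, as MT-ND4 did, which 6.22, 5.98, 7.04 and 4.98% of all tested rows did in 40S, 60S, 80S and polysome. MT-ND6 passed in 40S (2.35, edgeR adjusted p = 0.045) and 80S (2.43, adjusted p = 0.0399) although its treatments overlapped there, and not in 60S or polysome, and whether its fold change differed between fractions was not tested. MT-TP ranged from -0.12 to 0.11 and was called in none.

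The input tables carry mouse-style symbols on a reference that the sources used here do not name, and a low count there need not mean low expression. There were no replicates of the input and no test was made. Only 11 of the 37 mt rows had a count, and 26 were at 0 in both files, a count that allows up to 3 in each. Gene rows held only 10245548 of 145107865 input records with salubrinal and 12068784 of 203322430 in control, so shares of gene-row counts are not shares of all RNA sequenced. The mt rows held 20.0% of gene-row counts with salubrinal and 10.2% in control, of which rRNA made up 99.6% with salubrinal and 99.5% in control. mt-Rnr2 had 1820363 counts with salubrinal and 1068328 in control, a log2 ratio of TMM-scaled counts of 0.06 (95% exact binomial interval 0.06 to 0.07). mt-Rnr1 had 218244 with salubrinal and 161266 in control, a log2 ratio of -0.27 (-0.28 to -0.26). In share of gene-row counts both rRNA rows were therefore higher with salubrinal, while after scaling they lay near or below 0. The nuclear row CT010467.1, with 1308224 counts with salubrinal and 6839261 in control, took a smaller share with salubrinal, and its part in the mt share was not tested.

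Among rows holding 200 counts or more over both files, 2.06% were 2-fold or more higher with salubrinal and 2.48% 2-fold or more lower. Of the 5 mt rows among them 0 were higher and 1 lower by that much. The lower one was mt-Nd5, with 631 counts with salubrinal and 930 in control and a log2 ratio of -1.26 (-1.41 to -1.12). mt-Co1 had 5292 with salubrinal and 4133 in control (-0.35, -0.41 to -0.29), and mt-Nd1 had 1260 and 1025 (-0.41, -0.53 to -0.29). The median of the 5 rows was -0.35, against 0.05 for all such rows. Scaled by total counts the median of all rows was 0.99 and that of the 5 mt rows 0.59, so that each ratio except that of mt-Nd5 was positive but the mt median stayed below that of all rows. Among the other mRNA rows, mt-Cytb had 27 counts with salubrinal and 31 in control, mt-Nd4 15 and 8, and mt-Nd2 6 and 2, while mt-Co2, mt-Co3, mt-Atp6, mt-Atp8, mt-Nd3 and mt-Nd4l were at 0. Of tRNA rows, mt-Tm had 23 counts with salubrinal and 7 in control and mt-Tq 1 in each.

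mt-Nd6 did not lead the mRNA rows of the input as MT-ND6 did those of the gradient. It had 85 counts with salubrinal and 91 in control (log2 ratio -0.79, -1.25 to -0.36), or 1.16% (0.929 to 1.43) of mt mRNA counts with salubrinal and 1.46% (1.18 to 1.79) in control. In the gradient libraries MT-ND6 held 41.0, 74.4 and 28.5% of MT mRNA counts with salubrinal, against 30.2, 52.2 and 31.5% in control. The input rows follow another reference, so this difference was not tested.

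**Figure D5:**
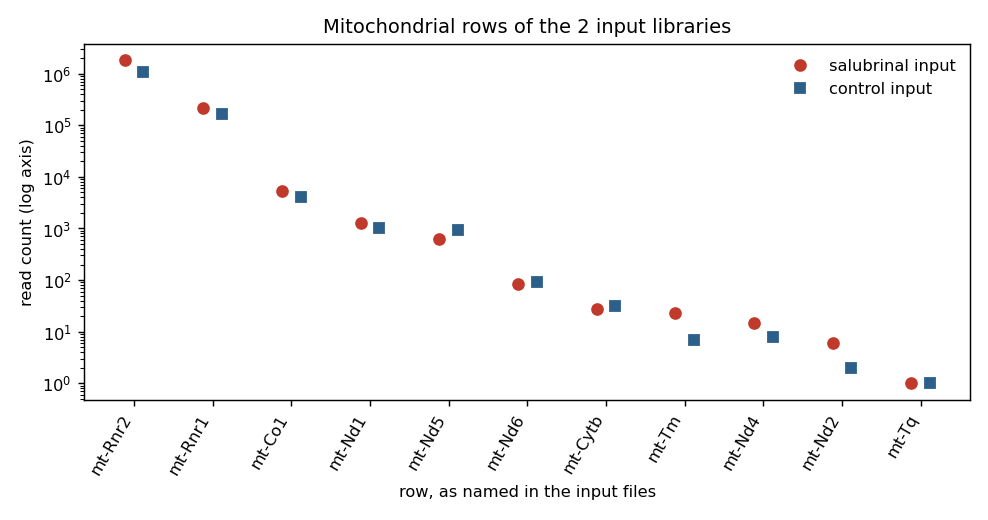
Counts on the mt rows with a count in the 2 input libraries (log axis), salubrinal left of control for each row, 1 library per treatment and no error bars. The rRNA rows mt-Rnr2 and mt-Rnr1 hold 161266 to 1820363 counts, mt-Co1 leads the mRNA rows with 5292 and 4133, and mt-Nd6 has 85 and 91.

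Nuclear genes that copy, cut and keep mitochondrial RNA held few counts in the gradient tables. In the input, 2.75% of all rows holding 50 counts or more were 2-fold or more higher with salubrinal and 3.8% lower, and list members are read against these shares. Of 33 rows of mitochondrial transcription and RNA processing genes, 14 had a count, 23 counts in all with salubrinal and 53 in control, and 0 could be tested. In the input 22 were measured with a median log2 ratio of -0.13, 0 being higher by 2-fold or more and 1 lower, Mrm3, an rRNA methyltransferase of the mitoribosome, at -1.0. Polrmt, the mitochondrial RNA polymerase, stood at -0.26, Lrpprc, which stabilizes mitochondrial mRNAs, at -0.12, and Rexo2, an oligoribonuclease, at 0.56. Of 11 rows for upkeep of mitochondrial DNA, 1 was tested in the gradient libraries, POLG, the DNA polymerase (0.36, edgeR adjusted p = 0.714), and 11 were measured in the input, with a median of -0.06 and 0 beyond 2-fold, near the shares over all rows.

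Nuclear copies of mitochondrial genes, which could take reads of the MT rows, held few counts on rows of their own. Those rows leave out alignments that were not unique, so they do not show how many reads the MT rows lost. Of 188 such rows 10 had a count, 26 counts with salubrinal and 39 in control. MTND2P28, the one tested, had 18 with salubrinal and 23 in control (log2 fold change 1.04, edgeR adjusted p = 0.263). Of 9 melanocytic markers 7 had a count in the gradient libraries, 50 counts in all with salubrinal and 342 in control, of which PMEL held 43 with salubrinal and 300 in control and fell by 1.45 on the log2 scale (adjusted p = 0.00776), and they held 19361 input counts with salubrinal and 24730 in control. After scaling, 6 of the 7 measured in the input were lower by 2-fold or more (3.8% of all such rows), with a median log2 ratio of -1.46, and the part of this in the MT rows was not tested. Keratinocyte, fibroblast and blood-cell markers had 0 to 3 counts with salubrinal and 1 to 13 in control per list in the gradient libraries, where only KRT10, LUM and CD68 had a count.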

How the data were processed

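The authors deposited read counts per gene, not normalized, for 24 gradient fraction samples and 2 inputs. A strand-keeping TruSeq total RNA kit was used, per the labels' protocols. HTSeq 0.5.3p3, DESeq, SAMtools 0.1.19.24, STAR, FastQC 0.11.5 and the build hg19 are listed in the submitters' processing notes. Gene order and neighbours came from a RefSeq table of GRCh38.p14, and no coordinates were used. Rows naming no gene were left out.

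Files were placed in libraries by chi-square against the 60S file of the same treatment and summed to 6 libraries of 1461789 to 2738655 gene-row counts. These, and each fraction, were fitted in R 4.3.3 with edgeR 4.0.16, using its filterByExpr filter, TMM factors, robust quasi-likelihood fits and a Benjamini-Hochberg threshold of 0.05 over all tested rows. The steps were tested on simulated data. Standard errors come from the fold change and its p. Shares were tested by exact permutation (scipy 1.17.1), with exact binomial intervals at 95%. The input ratio used a prior count of 2, and no test.

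All MT rows are members. Tested rows are given library by library, the others by counts and range, and in the input the mRNA and rRNA rows. Members, lists and alternatives were chosen with earlier results of these data known, and 2 alternatives (the depth covariate and the 3 deepest libraries) were added after the data were seen. Alternatives were DESeq2 1.42.0, RLE factors, library size alone or outside rRNA, no filter, a stricter filter and removal of nuclear rRNA rows. Others were titled numbers, a replicate block, leaving out each library, and TMM factors computed without the MT rows, which were still tested.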

Additional observations from a re-analysis of the deposited data

How the results depend on the processing

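The 7 called MT rows of the summed libraries had positive fold changes in all 18 alternatives, all drawn from the same fraction samples. On library size alone they were near 0 for MT-CO1 (0.008), MT-ND2 (0.016) and MT-ND1 (0.037), with edgeR adjusted p from 0.991 to 0.997. The number called moved: 4 with DESeq2 (of 18 calls in 710 rows), 11 without nuclear rRNA rows (of 91 in 748) and 12 with replicate numbers as titled (of 89 in 856). It was 0 without the count filter (of 4 in 10224), where 11 MT rows and 528 rows in all had an unadjusted edgeR p under 0.05. On library size alone it was 0 (of 0 in 913, with 0 at that level), and when a library was left out 1 to 7 (of 8 to 117 in 909 to 1430). RLE factors gave 7 (of 60 in 913) and a replicate block 6 (of 24 in 913). In 40S, 60S, 80S and polysome, DESeq2, library size alone and no filter each called 0 MT rows. Over all rows they called 0 as well, save 1 of 6021 in 40S without the filter. At an unadjusted p under 0.05 DESeq2 had 5, 4, 5 and 3 MT rows in these fractions, of 53, 45, 59 and 57 rows in all. The fit without a filter had 4, 1, 4 and 3 MT rows, of 136, 135, 165 and 153. Both fits held 5973 to 6044 rows. Library size alone had 0 in each, of 0 in all. In 40S RLE factors gave 1 (of 27 in 225) and the replicate block 0 (of 0 in 225). That block follows the titled numbers, so the control 40S files titled 1 and 2 are blocked apart from the libraries they match. In 80S the block gave 3 (of 15 in 213) and the removal of nuclear rRNA rows 3 (of 38 in 159). Leaving out a library gave 0 to 3 MT calls in 40S, 60S and 80S and 0 to 1 in polysome. Over all rows it gave 0 to 47 calls in 40S, 0 to 39 in 60S, 0 to 46 in 80S and 0 to 39 in polysome. The chi-square between fractions, with files as titled, found 2 libraries that differ. The difference in MT share ran from 1.74 to 12.1 points and that in light-strand share from -4.97 to 16.2 when one library was left out. The input median was 0.59 on total counts and -0.42 without CT010467.1.

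Signs turned for rows that were not called. On library size alone MT-CYB was -0.75, MT-ND5 -0.22, MT-RNR1 -0.73, MT-TC -0.10, MT-TP -1.14, MT-TQ -0.72 and MT-TY -1.10. With the depth covariate MT-CYB was -0.032, MT-RNR1 -0.17, MT-TP -0.17, MT-TQ -0.12 and MT-TY -0.61, and in the 3 deepest libraries MT-RNR1 was -0.060. MT-TP was -0.080 with DESeq2, -0.034 with RLE factors, -0.17 on counts outside rRNA and -0.11 without the filter. MT-TY was -0.043 with RLE factors, -0.17 on counts outside rRNA and -0.077 without the filter. With one library left out, MT-TC ran from -1.29 to 1.28, MT-TP from -0.25 to 0.32 and MT-TY from -0.49 to 1.12. Causes of these changes were not tested.

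Same-numbered libraries are not taken as pairs: their deviations correlated at -0.02, 0.17 and 0.31, and salubrinal library 1 did not correlate best with control library 1. Salubrinal libraries 2 and 3 did correlate best with control libraries 2 and 3. For these the values were 0.35 and 0.52 in 60S, 0.37 and 0.55 in 80S and 0.35 and 0.42 in polysome. Library 1 had 0.002, -0.04 and 0.02 there, so a link by number was left unsettled. Over the named rows and alternatives 205 values kept direction and side of the threshold, 40 fell below it, 15 passed it and 27 turned. Depth limits the rows with under 10 counts in a library, which include the called MT-CO2 and MT-ND3.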

Other observations

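The unnamed transcript row AC079949.1, the one other row outside rRNA that stayed within 2.5-fold over the 6 libraries per nuclear rRNA count, was chosen after its values were seen. It had 452, 478 and 440 counts per 1000000 nuclear rRNA counts with salubrinal, against 430, 445 and 942 in control, so that 5 libraries lay close together and control library 3 stood above them. MT-ND6 did not share that high value, at 251 in control library 3. Per 10000 counts outside rRNA, AC079949.1 had 679, 3500 and 101 with salubrinal, against 124, 507 and 138 in control, and as for MT-ND6 the library with the fewest such counts was the highest in each treatment.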
